A study of Mus musculus with 4 samples.

Results

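The interferon-induced transmembrane (Ifitm) genes encode small membrane proteins, and 4 of them, Ifitm1, Ifitm2, Ifitm3 and Ifitm6, were followed here through the leukocytes of the inflamed mouse gut wall. They are 4 of the 16308 genes in the count tables, which hold 3 further Ifitm genes at trace level. The 4 members were chosen by their measured levels in these same libraries. Their levels across cell classes, their ratios between libraries and the counts past 2-fold are therefore given as a description and carry no test. The libraries are droplet 3′ RNA libraries of sorted Cd45+ cells (leukocytes) from the muscularis externa, the outer muscle coat of the small intestine, after intestinal manipulation, a surgical handling of the bowel that inflames this layer. The 4 groups, with 1 library each, were WT C57BL/6J mice at 24 h and at 72 h after manipulation and Ccr2-/- mice (strain B6.129S4-Ccr2tm1Ifc/J, called CCR2 KO below) at the same times, all 12 weeks old, and all 4 groups were operated. Ccr2 encodes a chemokine receptor that monocytes need for their release from marrow into blood. Where 4 values follow each other below, they are in the order WT at 24 h, CCR2 KO at 24 h, WT at 72 h, CCR2 KO at 72 h. Each library was pooled from several mice, so the spread between mice was not measured, no p-value is given, and every interval below covers counting error only.

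IFITM proteins sit in the plasma membrane and in endosomes, where they hinder the fusion of enveloped viruses with the host membrane. Most are induced by type I and type II interferons, and several are also present without interferon. Ifitm1 is found mainly at the cell surface, Ifitm2 and Ifitm3 act in endosomes and lysosomes, and Ifitm6 is a rodent family member known from myeloid cells. Ifitm3 has been described both as an antiviral factor and as a restraint on inflammatory signalling in myeloid cells.

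All 4 genes lie in one cluster on chromosome 7 of build GRCm38, within 63088 bases (GENCODE vM21). Ifitm2 (ENSMUSG00000060591.9) spans chr7:140954837-140955987 on the minus strand, Ifitm1 (ENSMUSG00000025491.14) chr7:140967221-140969825 on the plus strand, Ifitm3 (ENSMUSG00000025492.6) chr7:141009586-141010770 on the minus strand and Ifitm6 (ENSMUSG00000059108.4) chr7:141015699-141017924 on the minus strand. Ifitm5 lies beside Ifitm2, and Ifitm7 and Ifitm10 lie elsewhere in the genome. The coding sequences, of 318 bases in Ifitm1, 432 in Ifitm2, 411 in Ifitm3 and 372 in Ifitm6, were alike to different degrees. Ifitm1 was identical to Ifitm2 and to Ifitm3 at 82.1% of aligned bases, Ifitm2 to Ifitm3 at 80.9%, and Ifitm6 to the other three at 63.2% to 67.5%. Since 3′ counting reads the end of a transcript, the last 400 bases were searched for 50-base words that another gene's transcripts also hold. None of 351 words of Ifitm6 was shared, against 7 of Ifitm1, 43 of Ifitm3 (with Ifitm1 and a predicted gene) and 89 of Ifitm2 (with predicted genes, one of which, Gm45717, overlaps Ifitm2 on the same strand). Ifitm2 is therefore the member whose count is least certain.

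The sequences before the RefSeq starts of the 4 genes are shown because the members differed in how their RNA followed other interferon-stimulated genes (below). Each was cut from the RefSeq window of the gene on GRCm38.p6, which reaches 250 bases before the RefSeq start, and bases of annotated exons were left out. For Ifitm1 and Ifitm6 this start lies inside the GENCODE span given above. Their printed bases are therefore not upstream of the gene as GENCODE places it. Capitals mark the core of the interferon-stimulated response element, GAAANNGAAA, read on both strands.
Ifitm1, plus strand, chr7:140967826-140968027: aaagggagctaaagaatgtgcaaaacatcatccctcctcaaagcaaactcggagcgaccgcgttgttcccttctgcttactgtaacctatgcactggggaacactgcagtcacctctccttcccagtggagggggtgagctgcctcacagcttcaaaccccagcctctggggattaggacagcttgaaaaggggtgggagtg
Ifitm2, minus strand, chr7:140955988-140956211: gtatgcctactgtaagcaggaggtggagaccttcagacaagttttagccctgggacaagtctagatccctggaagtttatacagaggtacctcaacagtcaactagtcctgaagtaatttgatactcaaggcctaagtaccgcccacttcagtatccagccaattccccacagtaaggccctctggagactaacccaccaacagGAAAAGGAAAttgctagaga
Ifitm3, minus strand, chr7:141010771-141010994: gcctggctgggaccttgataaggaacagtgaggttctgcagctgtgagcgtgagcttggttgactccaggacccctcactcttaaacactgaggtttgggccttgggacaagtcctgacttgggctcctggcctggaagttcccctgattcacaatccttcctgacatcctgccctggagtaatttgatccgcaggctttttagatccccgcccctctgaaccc
Ifitm6, minus strand, chr7:141016909-141017142: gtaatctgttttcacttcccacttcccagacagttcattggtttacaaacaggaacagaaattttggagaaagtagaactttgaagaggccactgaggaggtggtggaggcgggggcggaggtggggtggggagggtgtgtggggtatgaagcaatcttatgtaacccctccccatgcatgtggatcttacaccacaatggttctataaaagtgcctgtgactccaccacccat
Ifitm3, stretch with both matches, minus strand, chr7:141010716-141010742: GAAAAGGAAActtctgaGAAACCGAAA

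The element core was found 1 time at Ifitm2, 46 to 37 bases before the RefSeq start, and 2 times at Ifitm3, at bases 3 to 12 and 20 to 29 after it, in the 27-base stretch shown last, which lies inside the gene as annotated by GENCODE. It was not found in the 300-base windows of Ifitm1 and Ifitm6, which do not reach the GENCODE start of these genes. A second motif searched on both strands, the gamma-activated sequence TTCNNNGAA, was present at Ifitm3 (bases 14 to 22, overlapping the second element core) and at Ifitm6 (10 to 2 bases before the start). Of 32817 windows of the same length, 3.43% held the element core and 8.29% the gamma-activated sequence. Of 22 genes of a 28-gene interferon-stimulated list that had a window, 13 held the element core. A match is a run of letters and not a measured binding site.

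The tables hold 5811 cells, of which 12 with smooth muscle, stromal, vascular or glial RNA and no Ptprc (the gene for CD45) were set aside. The cells were grouped into 21 clusters without use of the Ifitm genes, the interferon-stimulated list or Ccr2, and 17 clusters were named from marker genes, with "-like" for a name given this way. The libraries held between 9736725 and 21206308 unique molecular identifiers (UMIs, 1 for each captured RNA molecule) in between 1048 and 1774 deposited cells. Monocyte/macrophage-like cells numbered 1278, 220, 867 and 131, with median depths from 10628 to 15776.5 UMIs. Neutrophil-like cells numbered 297, 1298, 88 and 221 and were shallower, with medians from 2083 to 4713 UMIs. A per-cell gate on the same markers put 98.3% of these 4400 cells in the same class. The gate gave no class to 279 of the cells that were kept, and 4 barcodes occurred in more than 1 library. Ccr2 itself was at 754.6 and 1064 counts per 1000000 UMIs (CPM) in the monocyte/macrophage-like cells of the WT libraries and at 95.2 and 100.4 CPM in the CCR2 KO libraries. RNA of the targeted gene was thus lower in the CCR2 KO libraries but not absent, and the deleted part of the gene is not given in the sources used here.

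Ifitm1 was foremost a neutrophil RNA. In neutrophil-like cells it stood at 6705, 4847, 4905 and 6612 CPM. In monocyte/macrophage-like cells it stood at 279.6, 122, 33.8 and 64.1 CPM, so no library of one class overlapped any of the other. How many other genes separate these classes in this way was not counted. Dendritic cell-like cells were between them at 24 h, with 1577 CPM in WT and 1781 CPM in CCR2 KO. At 72 h they were at 125 CPM in WT and 553 CPM in CCR2 KO. A cluster led by Siglecf, Egr3 and Mmp9 was at 990.4 to 1382 CPM in the 3 libraries with at least 30 such cells. It was left unnamed because the class with the highest marker score, mast cell or basophil, had none of its markers at 20 CPM or more. The 12 neutrophil markers summed to 25657 to 35877 CPM in this cluster in those libraries, where neutrophil-like cells reached 74842 to 175386 CPM.

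After each cell was thinned to 1000 UMIs, an Ifitm1 UMI was seen in 75.7% to 83.9% of neutrophil-like cells, depending on the library. It was seen in 2.10% to 15.2% of monocyte/macrophage-like cells. Without thinning the shares were 86.2% to 89.9% and 14.1% to 51.6%. In T cell-like cells, taken as a class with little of this RNA, the share was 0% to 6.45% after thinning and 0% to 11.7% before it, at median depths of 4781.5 to 8713 UMIs. In the WT 72 h library the macrophage share was 2.10%, against 6.45% (2 of 31 cells) of T cell-like cells. Those 2 cells held all 70 Ifitm1 UMIs of that unit, so their share is a poor measure of background. After thinning, an Ifitm1 UMI was seen there in 0 of 24 and 0 of 20 cells of unnamed clusters led by Trdc and by Iglc1. It was seen in 1 of 17 NK cell-like cells. These units were small, so no background level was set for the WT 72 h macrophages. The macrophage share of the CCR2 KO 72 h library was 5.31% (6 of 113 cells), against 1.30% (1 of 77 cells) of T cell-like cells. Ifitm1 was also set beside S100a8 and S100a9, alarmin genes that fill neutrophils. S100a8 is a monocyte gene as well, so in monocyte/macrophage-like cells these genes do not measure neutrophil RNA alone. Neutrophil-like cells held 42.2 to 79.5 Ifitm1 UMIs per 1000 UMIs of those genes, and monocyte/macrophage-like cells 210.4 to 1434.

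Ifitm2 was shared between the classes, with the higher level in neutrophil-like cells. It stood there at 5028, 2427, 3837 and 3382 CPM, against 1346, 581, 1692 and 896 CPM in monocyte/macrophage-like cells. Both WT macrophage values were above both CCR2 KO values. The share of all genes with this order is not given here, and the mix of macrophage clusters differed between the libraries (below). Dendritic cell-like cells were at 791 to 1150.3 CPM, a range narrower than that of Ifitm1 in the same cells.

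Ifitm3 was the most abundant member in monocyte/macrophage-like cells, at 4285, 2736, 3345 and 2099.8 CPM. Because 1 UMI stands for 1 captured molecule whatever its length, these levels can be set beside each other without a length correction, although capture may differ between genes. In neutrophil-like cells Ifitm3 stood at 3134, 2693, 1543 and 2353 CPM, below the macrophage value of the same library in both WT libraries. In the CCR2 KO libraries the classes were close, with overlapping intervals at 24 h (2643 to 2744 and 2682 to 2790.2 CPM) and neutrophils higher at 72 h. Dendritic cell-like cells were at 4705 CPM in WT and 3029 CPM in CCR2 KO at 24 h, and at 1709.8 and 1752 CPM at 72 h.

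Ifitm6 was the rarest member in neutrophil-like cells and the one that varied most between their libraries, at 1095, 230.5, 439 and 862 CPM. In monocyte/macrophage-like cells it was at 165, 66.0, 149 and 163 CPM, lowest in the CCR2 KO 24 h library. In the T cell-like cells of the 4 libraries together 3 UMIs were counted, in NK cell-like cells none.

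Lymphoid classes held little of the family. In the CCR2 KO libraries T cell-like cells were at 10.9 and 72.3 CPM of Ifitm1, 16.3 and 119 CPM of Ifitm2 and 29.9 CPM at 24 h, with 22 UMIs at 72 h, of Ifitm3. NK cell-like cells of the CCR2 KO 72 h library were at 4.03, 56.4 and 32.2 CPM. Innate lymphoid cell-like cells, 47 in all libraries, had no Ifitm1 UMI. The T cell-like cells of the 72 h libraries were above macrophages in Ifitm1 in WT (297 CPM) and level with them in CCR2 KO (72.3 CPM), and the 70 UMIs of the former came from 2 of 31 cells.

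**Figure D1:**
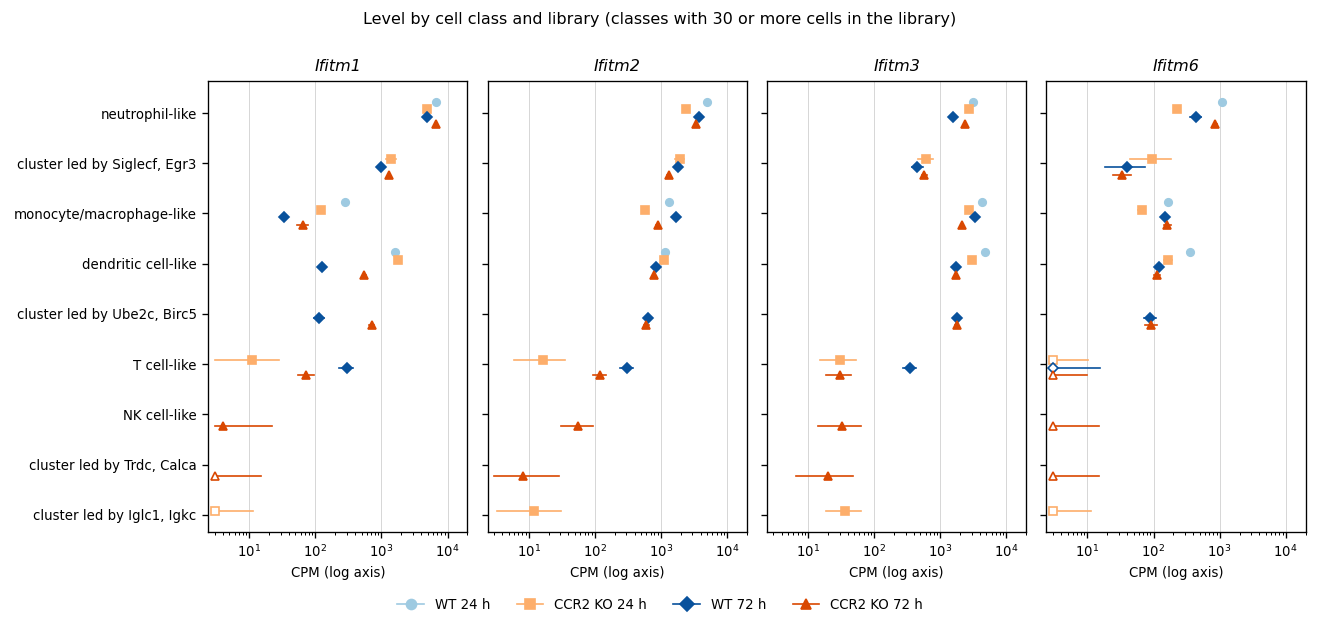
Level of each Ifitm gene (CPM, log axis) by cell class (rows) and library (colour and symbol), for classes with 30 or more cells in the library. Bars are 95% counting intervals, and open symbols at the left edge stand for values under 3 CPM. Ifitm1 and Ifitm6 were highest in neutrophil-like cells, and lymphoid classes were low in all 4 genes, apart from Ifitm1, Ifitm2 and Ifitm3 in the T cell-like cells of the WT 72 h library.

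The make-up of the family differed between classes. The 4 genes together reached 10197 to 15963 CPM in neutrophil-like cells and 3223 to 6076 CPM in monocyte/macrophage-like cells. Ifitm1 made up 42.0% to 50.1% of family UMIs in neutrophil-like cells, and Ifitm3 64.1% to 78.1% in monocyte/macrophage-like cells. In the Siglecf-led cluster Ifitm2 led with 40.7% to 55.5%, although Ifitm1 was level with it in the CCR2 KO 72 h library (40.4%). Dendritic cell-like cells resembled macrophages in the share of Ifitm3 (49.8% to 61.2%), but held 20.3% and 29.3% Ifitm1 at 24 h. In the WT libraries most Ifitm3 UMIs came from macrophages, 92.1% at 24 h and 86.7% at 72 h. Macrophages held 90.8% and 74.2% of the UMIs of all genes there, so the 24 h share was close to that of any RNA. In the CCR2 KO libraries, where neutrophils or Siglecf-led cells were more numerous, macrophages held 39.6% and 25.2% of Ifitm3 UMIs. Their share of the UMIs of all genes was 34.9% and 17.5%. In a value over a whole library, fewer cells of a type and less RNA per cell cannot be told apart, and the comparisons below were made within classes.

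Within neutrophils, Ifitm6 was highest in the cluster led by Retnlg, S100a9 and S100a8, genes that are high in neutrophils soon after they leave the marrow, and so was Ifitm1 in 3 of the 4 libraries, among clusters with 20 or more cells. Ifitm1 stood there at 9870.1, 12237 and 9380.0 CPM in the WT 24 h, CCR2 KO 24 h and CCR2 KO 72 h library. In the WT 72 h library, where 25 cells fell in that cluster, it held 5017 CPM of Ifitm1, below the 6785 CPM of the Cxcr2-led cluster, and 805 CPM of Ifitm6. Ifitm1 was at 5181 to 6785 CPM in the cluster led by Cxcr2, Lrg1 and H2-Q10, at 2837 and 3162 CPM in that led by Csf1, Hcar2 and Ptgs2, and at 957 CPM in that led by Rab15, Mreg and Gdf15. In the cluster led by Asprv1, Chil1 and Lcn2 it was at 7129.9, 4808 and 3561 CPM in the WT 24 h, CCR2 KO 24 h and CCR2 KO 72 h library, above the Cxcr2-led cluster in the first of these and below it in the other two. Ifitm6 had a steeper gradient. It was at 3239, 741 and 1369 CPM in the Retnlg-led cluster, at 212 to 372 CPM in the Cxcr2-led cluster and at 34.7 CPM in the Rab15-led cluster. The Asprv1-led cluster had 302 to 443 CPM of it and the Csf1-led cluster 137 to 153 CPM.

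Ifitm3 followed another order. In the CCR2 KO 24 h library, which filled all 5 neutrophil-like clusters, it was at 3504 CPM in the Cxcr2-led, 2862 CPM in the Retnlg-led, 2770.0 CPM in the Csf1-led and 2439 CPM in the Asprv1-led cluster, and only in the Rab15-led cluster below 1000 CPM, at 828 CPM. Ifitm2 in the same library ranged from 952 CPM (Rab15-led) to 3421 CPM (Cxcr2-led). The Siglecf-led cluster was low in Ifitm3 (451 to 606 CPM) and in Ifitm6 (33.9 to 95.6 CPM) while it kept 1311 to 1934 CPM of Ifitm2. The clusters were made from other genes of the same cells, so these differences are a description of them.

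**Figure D2:**
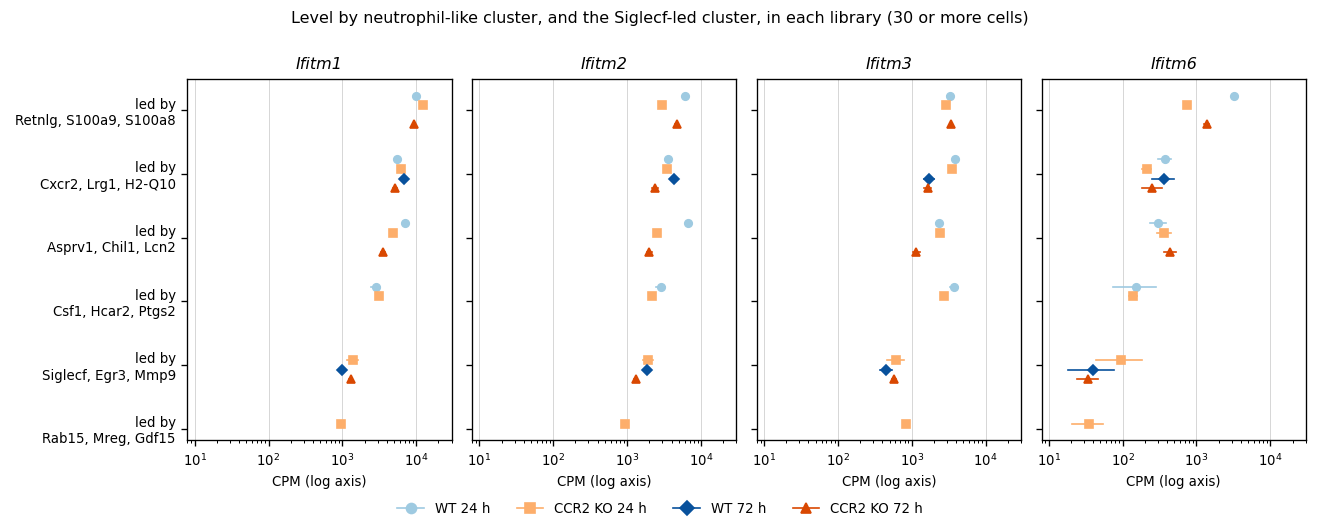
Level of each Ifitm gene (CPM, log axis) in the 5 neutrophil-like clusters and the Siglecf-led cluster, named by their 3 leading genes and ordered by Ifitm1, for libraries with 30 or more cells in the cluster. Symbols are libraries and bars 95% counting intervals. Ifitm6 spanned from 33.9 to 3239 CPM.

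Within monocyte/macrophage-like cells, Ifitm1 and Ifitm3 were highest at the monocyte end of the class. The cluster led by Chil3, Gm9733 and Vcan, of which Chil3 and Vcan are known from monocytes, held 4998 CPM of Ifitm3 in the WT 24 h, 4585 CPM in the CCR2 KO 24 h and 5207 CPM in the WT 72 h library. Its Ifitm1 was at 488, 368 and 109 CPM and its Ifitm6 at 312, 274 and 497 CPM in the same order. Ifitm6 was higher still in the cluster led by Cxcl13, Prg4 and Alox15, with 373 CPM in the WT 24 h and 564 CPM in the WT 72 h library. The cluster led by Lilra5, Mmp13 and Vcam1, present in both strains, was the lowest in Ifitm3, with 1647 CPM in CCR2 KO at 24 h and, at 72 h, 1667 CPM in WT and 1209 CPM in CCR2 KO. Its Ifitm6 was at 5.17, 24.3 and 23.9 CPM. Ifitm2 had a narrower range: in the WT 72 h library it was at 2108 CPM in the Chil3-led, 2075 CPM in the Cxcl13-led, 1783 CPM in the cluster led by Gal, Apoe and Selenop, 1452 CPM in that led by Ear2, Mgl2 and Axl and 1066 CPM in the Lilra5-led cluster. Ifitm3 in the same library was higher in the Ear2-led than in the Gal-led cluster (3545 and 3186 CPM), the other way round from Ifitm2.

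Subsets named after those of the study, from their marker genes, divided the class further. Ly6c monocyte-like cells were at 5220.3, 4339.9 and 5365 CPM of Ifitm3 in the WT 24 h, CCR2 KO 24 h and WT 72 h library. Fabp5-like cells of the WT 24 h library were at 4192 CPM and Arg1-like cells at 3675 CPM. At 72 h in WT, Timp2-like cells were at 4799 CPM, Cd206-like cells at 2823 CPM and Cx3cr1-like cells at 1263 CPM. Ifitm6 split the same subsets further, from 546 CPM in Ly6c monocyte-like and 388 CPM in Timp2-like cells to 36.8 CPM in Cd206-like and 1.71 CPM in Cx3cr1-like cells, all of the WT 72 h library. Ifitm1 was at 376 CPM in Arg1-like and 364 CPM in Ly6c monocyte-like cells at 24 h in WT, and Ifitm2 at 1680.3 and 1411 CPM, so neither was highest in the monocyte subset there. At 72 h in WT, Ifitm1 was at 10.3 CPM in Cd206-like and 11.4 CPM in Timp2-like cells. Of the monocyte/macrophage-like cells, 559 lay in sub-clusters that took no subset name.

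**Figure D3:**
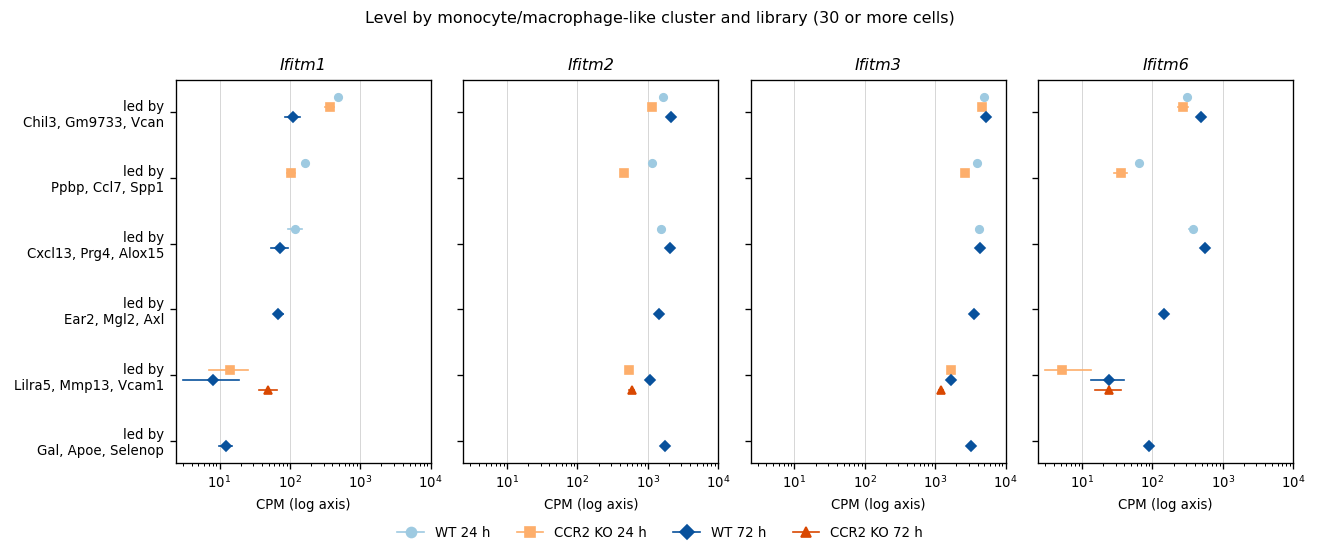
Level of each Ifitm gene (CPM, log axis) in the 6 monocyte/macrophage-like clusters, named by their 3 leading genes and ordered by Ifitm1, for libraries with 30 or more cells in the cluster. Symbols are libraries and bars 95% counting intervals. The Lilra5-led cluster was the lowest in Ifitm3, and Ifitm2 varied less between clusters of the WT libraries than Ifitm1 did.

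The first comparison asked how the family differed between CCR2 KO and WT macrophages at 24 h. All 4 genes were lower in the CCR2 KO library. Ifitm6 differed by -1.33 (95% interval -1.52 to -1.14) on the log2 scale, Ifitm2 by -1.21 (95% interval -1.28 to -1.15), Ifitm1 by -1.20 (95% interval -1.34 to -1.06) and Ifitm3 by -0.65 (95% interval -0.68 to -0.62). Thus 3 of the 4 were past 2-fold, where 4.2% of the 5877 genes at 20 CPM or more in either library were, with a median over all those genes of -0.07. The members were chosen from these same libraries, so this count and the later ones are descriptions and not a test of enrichment. The direction was the same under all 14 alternative ways of processing, with ranges of -1.47 to -0.95 for Ifitm6, -1.28 to -1.15 for Ifitm2, -1.30 to -0.70 for Ifitm1 and -0.67 to -0.51 for Ifitm3. The number of members past 2-fold was smaller at resolution 2 (below). The mix of clusters differed between these libraries. The Chil3-led cluster had 33 of 220 CCR2 KO and 507 of 1278 WT cells, and the Lilra5-led cluster 52 and 24. In the pair of clusters with 30 or more cells in both libraries the ratios were also below 0. In the cluster led by Ppbp, Ccl7 and Spp1 (122 CCR2 KO and 658 WT cells) the log2 ratios were -0.68 (-0.89 to -0.49) for Ifitm1, -1.34 (-1.43 to -1.25) for Ifitm2, -0.56 (-0.60 to -0.52) for Ifitm3 and -0.86 (-1.21 to -0.53) for Ifitm6. In the Chil3-led cluster (33 and 507 cells) they were smaller, -0.41 (-0.62 to -0.20), -0.50 (-0.62 to -0.38), -0.12 (-0.18 to -0.07) and -0.19 (-0.44 to 0.05), and the interval of Ifitm6 reached 0. In the Lilra5-led cluster (52 and 24 cells) Ifitm2 was at -1.03 (-1.25 to -0.80) and Ifitm3 at -0.15 (-0.31 to 0.00), while Ifitm1 at 1.90 (-0.88 to 7.33) and Ifitm6 at 0.44 (-2.89 to 6.07) were on the other side of 0 with wide intervals, so the direction did not hold there for all 4 genes.

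Neutrophil marker RNA in the macrophages also differed between these libraries. The 12 neutrophil markers, all of them detected in both libraries, summed to 376 CPM in the CCR2 KO and 896 CPM in the WT macrophages, where neutrophil-like cells of these libraries reached 74842 and 122170 CPM. Without macrophages in which those markers made up over 1% of UMIs, the log2 ratios were -1.13 for Ifitm1, -1.20 for Ifitm2, -0.65 for Ifitm3 and -1.25 for Ifitm6.

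At 72 h the same comparison gave a mixed result, with none of the 4 past 2-fold beside 6.89% of 6382 genes (median 0.12). Ifitm2 was lower in CCR2 KO macrophages at a log2 ratio of -0.92 (95% interval -0.99 to -0.84) and Ifitm3 at -0.67 (95% interval -0.72 to -0.62), Ifitm1 was higher by 0.92 (95% interval 0.61 to 1.23), and Ifitm6 differed by 0.13 (95% interval -0.06 to 0.31). The ratios of this comparison, with 131 CCR2 KO cells, moved with the processing. Ifitm3 ranged from -0.86 to 0.16 under the alternatives and Ifitm1 from 0.74 to 3.53, while Ifitm2 stayed lower in CCR2 KO throughout (-1.20 to -0.20). Within the Lilra5-led cluster, with 67 CCR2 KO and 54 WT cells, the log2 ratios were -0.86 (-1.02 to -0.69) for Ifitm2, -0.46 (-0.58 to -0.34) for Ifitm3, 2.59 (1.27 to 4.28) for Ifitm1 and -0.02 (-1.01 to 1.01) for Ifitm6. In the Cxcl13-led cluster (29 and 63 cells) they were -1.45 (-1.80 to -1.12), -0.99 (-1.19 to -0.79), 0.29 (-0.92 to 1.33) and -1.25 (-1.91 to -0.66), and in the cells without a subset name (94 and 274) Ifitm6 was at -1.52 (-1.95 to -1.11), so the Ifitm6 ratio near 0 of the class was not that of these cells. The mix of clusters differed, with 510 of the WT cells and 5 of the CCR2 KO cells in the Gal-led cluster. The Ifitm1 ratios are set against a low WT level, 33.8 CPM in the class, for which no background level was set. Ifitm1 in CCR2 KO macrophages rested on few cells, since 3 of the 131 cells held 41.7% of its 108 UMIs.

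Over time, WT macrophages differed most in Ifitm1. It was at 279.6 CPM at 24 h and at 33.8 CPM at 72 h, a log2 ratio of -3.05 (95% interval -3.20 to -2.90). The size of this ratio is uncertain because the 72 h level was low and no background level was set for it. The class lay in different clusters at the 2 times, with 658 and 17 cells in the Ppbp-led, 507 and 55 in the Chil3-led, 14 and 510 in the Gal-led and 9 and 168 in the Ear2-led cluster at 24 h and 72 h. Ifitm2 was higher at 72 h by 0.33 (95% interval 0.30 to 0.36), Ifitm3 lower at a log2 ratio of -0.36 (95% interval -0.37 to -0.34), and Ifitm6 differed by -0.15 (95% interval -0.23 to -0.07). Thus 1 of 4 was past 2-fold, beside 13.6% of 6182 genes. S100a8, a neutrophil and monocyte gene, was also lower at 72 h in these cells, at 450.3 CPM at 24 h and 85.5 CPM at 72 h, and its part in the Ifitm1 difference was not tested. In the Chil3-led monocyte cluster, which both WT libraries filled, Ifitm1 differed by -2.16 (-2.53 to -1.82), Ifitm6 by 0.67 (0.50 to 0.84), Ifitm2 by 0.36 (0.27 to 0.44) and Ifitm3 by 0.06 (0.01 to 0.11), so Ifitm6 was higher at 72 h in this cluster although it was not in the class as a whole. In the Cxcl13-led cluster (63 cells at 72 h and 66 at 24 h) Ifitm1 differed by -0.71 (-1.24 to -0.20) and Ifitm6 by 0.60 (0.37 to 0.83), and in the Lilra5-led cluster (54 and 24 cells) Ifitm1 differed by 1.09 (-2.07 to 6.66).

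In CCR2 KO macrophages 1 of 4 genes was past 2-fold between the times, beside 13.9% of 6412 genes (median 0.12). Ifitm6 was higher at 72 h by 1.30 (95% interval 1.05 to 1.56) and Ifitm2 by 0.62 (95% interval 0.53 to 0.72). Ifitm1 was lower at a log2 ratio of -0.93 (95% interval -1.24 to -0.62) and Ifitm3 at -0.38 (95% interval -0.44 to -0.33). The direction of Ifitm1 and of Ifitm3 turned under 3 alternatives each, with ranges of -1.15 to 1.25 and -0.65 to 0.47, while those of Ifitm6 (0.88 to 2.76) and Ifitm2 (0.40 to 1.35) did not. The mix of clusters differed here too, with 122 cells at 24 h and 10 at 72 h in the Ppbp-led cluster. In the Lilra5-led cluster (67 cells at 72 h and 52 at 24 h) Ifitm1 was higher at 72 h by 1.78 (0.82 to 2.88), against the direction of the class, and Ifitm6 by 2.21 (0.67 to 4.20), while Ifitm3 differed by -0.45 (-0.56 to -0.33) and Ifitm2 by 0.12 (-0.06 to 0.31).

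In neutrophil-like cells at 24 h all 4 genes were again lower in the CCR2 KO library, and 2 were past 2-fold beside 9.0% of 4331 genes (median 0.12). Ifitm6 differed by -2.25 (95% interval -2.39 to -2.11) and Ifitm2 by -1.05 (95% interval -1.11 to -1.0). Ifitm1 differed by -0.47 (95% interval -0.51 to -0.42) and Ifitm3 by -0.22 (95% interval -0.28 to -0.15). The mix of clusters differed between these libraries, and Retnlg, the leading gene of the cluster richest in Ifitm6, was at a log2 ratio of -3.00. Within that cluster (110 CCR2 KO and 47 WT cells) Ifitm6 was still lower in CCR2 KO at a log2 ratio of -2.13 (-2.32 to -1.94) and Ifitm2 at -1.06 (-1.17 to -0.95), whereas Ifitm1 was higher by 0.31 (0.24 to 0.38). Within the Cxcr2-led cluster (389 and 141 cells) Ifitm6 differed by -0.81 (-1.17 to -0.43), Ifitm2 by -0.06 (-0.17 to 0.05) and Ifitm1 by 0.19 (0.10 to 0.27). In the Csf1-led cluster (583 and 31 cells) Ifitm1 differed by 0.16 (-0.05 to 0.38) and Ifitm6 by -0.16 (-1.06 to 0.92), and in the Asprv1-led cluster (58 and 69 cells) by -0.57 (-0.68 to -0.46) and 0.29 (-0.20 to 0.78). Ifitm2 differed by -0.40 (-0.62 to -0.19) in the Csf1-led and -1.43 (-1.57 to -1.29) in the Asprv1-led cluster. Ifitm3 differed by -0.42 in the Csf1-led, -0.20 in the Retnlg-led, -0.15 in the Cxcr2-led and 0.08 in the Asprv1-led cluster. The lower Ifitm1 of the class was therefore seen in 1 of these 4 clusters, and the lower Ifitm6 with an interval below 0 in the Retnlg-led and Cxcr2-led clusters. Of the 800 Ifitm6 UMIs in WT neutrophil-like cells, the 30 highest cells held 80.5%.

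At 72 h none of the 4 genes was past 2-fold between CCR2 KO and WT neutrophils, beside 11.2% of 4401 genes (median -0.14). Ifitm6 was higher in the CCR2 KO library by 0.97 (95% interval 0.69 to 1.27), Ifitm3 by 0.61 (95% interval 0.46 to 0.77) and Ifitm1 by 0.43 (95% interval 0.34 to 0.52), and Ifitm2 was lower at a log2 ratio of -0.18 (95% interval -0.28 to -0.08). With scaling by trimmed means (TMM), which moved all genes of this comparison up by 0.39, Ifitm2 came out at 0.21. In the Cxcr2-led cluster (54 and 39 cells) Ifitm1 was lower in CCR2 KO at a log2 ratio of -0.39 (-0.53 to -0.24) and Ifitm2 at -0.88 (-1.07 to -0.68). In the Retnlg-led cluster (87 and 25 cells) Ifitm1 was higher in CCR2 KO by 0.90 (0.76 to 1.05), Ifitm3 by 0.92 (0.68 to 1.16) and Ifitm6 by 0.76 (0.41 to 1.14), so Ifitm1 went opposite ways in these clusters.

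Over time in WT neutrophils 2 of 4 genes were past 2-fold, beside 19.8% of 4404 genes (median 0.19), and all 4 were lower at 72 h in the class. The log2 ratios were -1.32 (95% interval -1.62 to -1.03) for Ifitm6, -1.02 (95% interval -1.18 to -0.87) for Ifitm3, -0.45 (95% interval -0.54 to -0.36) for Ifitm1 and -0.39 (95% interval -0.49 to -0.29) for Ifitm2. The Retnlg-led cluster (25 cells at 72 h and 47 at 24 h) had all 4 below 0, with -0.98 (-1.13 to -0.83) for Ifitm1, -0.50 (-0.68 to -0.34) for Ifitm2, -0.87 (-1.13 to -0.62) for Ifitm3 and -2.01 (-2.39 to -1.65) for Ifitm6. In the Cxcr2-led cluster (39 and 141 cells) Ifitm1 was higher at 72 h by 0.30 (0.17 to 0.44) and Ifitm2 by 0.28 (0.11 to 0.45), and Ifitm6 differed by -0.05 (-0.64 to 0.52).

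In CCR2 KO neutrophils 1 of 4 was past 2-fold, beside 11.8% of 4397 genes (median -0.11). Ifitm6 was higher at 72 h there by 1.90 (95% interval 1.77 to 2.03), Ifitm2 by 0.48 (95% interval 0.42 to 0.53) and Ifitm1 by 0.45 (95% interval 0.41 to 0.49), and Ifitm3 was lower at a log2 ratio of -0.19 (95% interval -0.26 to -0.13). With the Siglecf-led cells counted as neutrophils the CCR2 KO ratios were 0.96 for Ifitm6, -0.28 for Ifitm1 and -0.05 for Ifitm2. The mix of clusters differed between the times, with 583 cells at 24 h and 21 at 72 h in the Csf1-led and 110 and 87 in the Retnlg-led cluster. Within clusters Ifitm1 had a ratio below 0, against the direction of the class, in all 4 with 20 or more cells at both times: -0.19 (-0.40 to 0.01) in the Csf1-led, -0.43 (-0.56 to -0.31) in the Asprv1-led, -0.27 (-0.37 to -0.17) in the Cxcr2-led and -0.38 (-0.44 to -0.33) in the Retnlg-led cluster. Ifitm2 was at 0.07, -0.33, -0.53 and 0.67 and Ifitm6 at 1.25, 0.27, 0.25 and 0.88 in the same clusters. Ifitm3 was at -1.16 (-1.40 to -0.93) in the Cxcr2-led cluster of WT and at -1.10 (-1.28 to -0.92) in that of CCR2 KO, but it was higher at 72 h in the Retnlg-led cluster of CCR2 KO, by 0.25 (0.15 to 0.35). The comparisons share libraries pairwise, so they are not independent of each other.

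**Figure D4:**
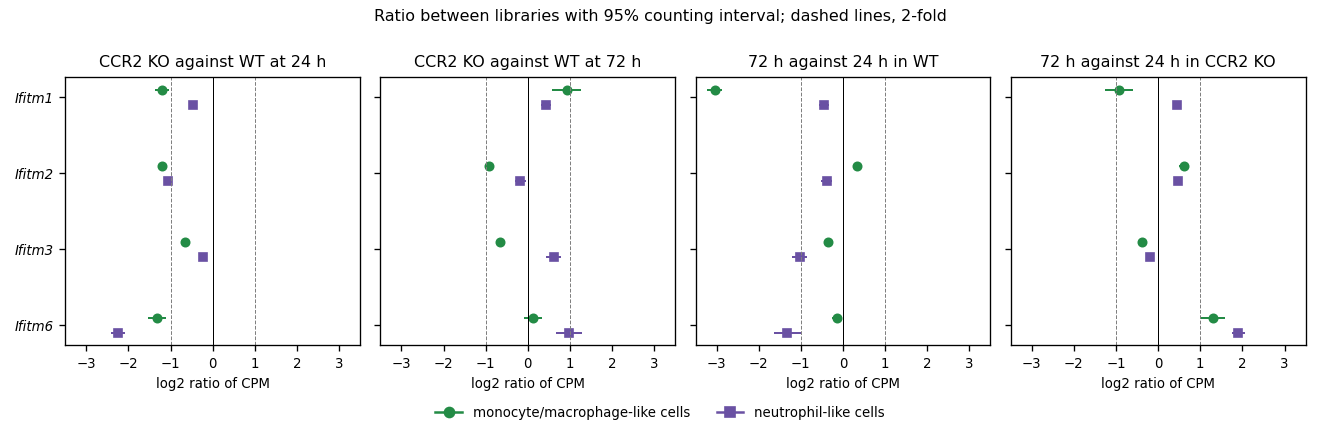
Log2 ratio of each Ifitm gene between 2 libraries, in monocyte/macrophage-like cells (circles) and neutrophil-like cells (squares), 1 panel per comparison. Bars are 95% counting intervals and dashed lines mark 2-fold. Both classes were below 0 for all 4 genes in the comparison of CCR2 KO with WT at 24 h.

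Dendritic cell-like cells, 59 to 107 per library, were followed because their Ifitm1 was far above that of macrophages at 24 h. In WT, Ifitm1 was lower at 72 h at a log2 ratio of -3.66 (95% interval -3.86 to -3.46), Ifitm6 at -1.54 (95% interval -1.79 to -1.29), Ifitm3 at -1.46 (95% interval -1.53 to -1.39) and Ifitm2 at -0.46 (95% interval -0.57 to -0.35). In CCR2 KO the same ratios were -1.69, -0.55, -0.79 and -0.48, all lower at 72 h as well. Between the strains at 24 h, Ifitm6 was lower in CCR2 KO at a log2 ratio of -1.08 and Ifitm3 at -0.64, while Ifitm1 and Ifitm2 differed by 0.18 and -0.06. At 72 h Ifitm1 was higher in CCR2 KO by 2.14 (95% interval 1.95 to 2.35), while Ifitm2, Ifitm3 and Ifitm6 differed by -0.08, 0.04 and -0.08. Few cells carried this Ifitm1: 11 of 106 CCR2 KO cells held 65.6% of 1707 UMIs, and 11 of 107 WT cells held 63.9% of 233. S100a8 and S100a9 together were also higher in the CCR2 KO dendritic cell-like cells at 72 h, at 318 CPM against 2.68 CPM. These cells held 1737 Ifitm1 UMIs per 1000 UMIs of S100a8 and S100a9, where neutrophil-like cells of the same library held 42.2. Ifitm1 was concentrated in the dendritic cluster led by Ccl17, Cd209a and Ccl22, with 1748, 1942, 158 and 988 CPM, and was at 82.2 CPM in the Xcr1-led cluster of the CCR2 KO 72 h library. A dividing cluster led by Ube2c, Birc5 and Top2a, seen at 72 h, had 707 CPM of Ifitm1 in CCR2 KO and 113 CPM in WT, a log2 ratio of 2.65 (95% interval 2.37 to 2.94), while Ifitm2 (-0.08), Ifitm3 (-0.02) and Ifitm6 (0.05) were near 0 there. Single cells carried this Ifitm1: 1 of 38 CCR2 KO cells held 352 of 706 UMIs and 3 held 83.7%, and 1 of 46 WT cells held 72 of 122.

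Interferon-stimulated genes gave a reference for the family. The list held 28 genes, such as Isg15, Ifit1 and Rsad2, whose products mark the interferon response, and it was chosen with earlier results of these data known. In dendritic cell-like cells the list's median log2 ratio of 72 h to 24 h was -2.22 in WT beside -0.04 over all genes, and -0.55 in CCR2 KO beside -0.03. In macrophages at 24 h 1 of 27 list genes at 20 CPM or more was higher in CCR2 KO than in WT by any amount. The list's median was -0.52 beside -0.07 over all genes, and 1, Cmpk2 (-1.21), was lower past 2-fold. At 72 h the macrophage median was -0.21 beside 0.12, with 4 of 25 genes lower past 2-fold, where 149 of all 6382 were: Cxcl10 (-2.94), Irf7 (-1.63), Rsad2 (-1.44) and Usp18 (-1.11). Between the times 6 of 27 genes were lower at 72 h past 2-fold in WT macrophages (median -0.71 beside -0.05), where 410 of all 6182 were, among them Isg15 (-1.86) and the chemokine gene Cxcl10 (-1.66), and 6 of 25 in CCR2 KO macrophages (median -0.46 beside 0.12), where 294 of all 6412 were.

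In neutrophils the list differed mostly between the times. In WT 19 of 25 genes were lower at 72 h past 2-fold (median -1.30 beside 0.19 over all genes), where 330 of all 4404 genes were, and none was higher at all. Among them were Cmpk2 (-2.72), Ifit1 (-2.58) and Ifi204 (-2.46). In CCR2 KO 19 of 25 were lower past 2-fold (median -1.26 beside -0.11), where 338 of all 4397 were, among them Ifit2 (-2.68), Stat2 (-1.88) and Isg15 (-1.65). Of the Ifitm genes, Ifitm3 was lower at 72 h in the neutrophils of both strains, at a log2 ratio of -1.02 and -0.19, with the clusters that went otherwise given above. Between the strains at 24 h the list's neutrophil median was 0.16, close to the 0.12 over all genes, with Cxcl10 higher in CCR2 KO (2.13). At 72 h 10 of 24 genes were higher in CCR2 KO past 2-fold (median 0.53 beside -0.14), where 215 of all 4401 were, led by Cmpk2 (2.38), Ifit3 (1.40), Ifi47 (1.32) and Xaf1 (1.28).

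Cell by cell, Ifitm3 followed the interferon-stimulated list and the other members did not follow it in the same way. Cells were thinned to 1000 UMIs and those with 3 or more UMIs of the list were set against those with 0 to 2. In neutrophil-like cells Ifitm3 was at 1098 CPM in the low and 3964 CPM in the high cells of the WT 24 h library, a log2 ratio of 1.85 (1.54 to 2.18). The ratios were 1.66 (1.50 to 1.83) in the CCR2 KO 24 h, 1.17 (0.63 to 1.72) in the WT 72 h and 1.05 (0.77 to 1.34) in the CCR2 KO 72 h library. All 4 intervals lay above 0. For Ifitm1 the ratios were -0.48 (-0.62 to -0.33), 0.23 (0.14 to 0.32), 0.05 (-0.24 to 0.33) and 0.06 (-0.10 to 0.22). For Ifitm2 they were -0.26 (-0.43 to -0.09), 0.34 (0.22 to 0.46), 0.17 (-0.17 to 0.51) and 0.14 (-0.09 to 0.36). For Ifitm6 they were -0.42 (-0.83 to 0.00), 0.58 (0.12 to 1.07), 0.00 (-1.23 to 1.16) and 0.40 (-0.10 to 0.89).

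The Ifitm3 difference was also present inside single clusters of the CCR2 KO 24 h library. It was 1.61 (1.36 to 1.88) in the Csf1-led, 1.47 (1.19 to 1.77) in the Cxcr2-led, 0.73 (0.31 to 1.18) in the Retnlg-led, 2.13 (1.40 to 2.93) in the Asprv1-led and 1.72 (1.09 to 2.40) in the Rab15-led cluster. In the Asprv1-led cluster of the WT 24 h library it was 1.89 (1.29 to 2.54), in the Retnlg-led cluster of that library 2.08 (1.44 to 2.77), and in that of the CCR2 KO 72 h library 0.28 (-0.08 to 0.63), where the interval reached 0. In monocyte/macrophage-like cells the Ifitm3 ratios were smaller: 0.56 (0.47 to 0.64), 0.72 (0.47 to 0.97), 0.32 (0.21 to 0.43) and 0.13 (-0.29 to 0.54), the last with 113 cells. Within macrophage clusters they ranged from -0.33 (-1.04 to 0.37) in the Lilra5-led cluster of the CCR2 KO 72 h library to 0.88 (0.17 to 1.61) in the same cluster of the WT 72 h library. Ifitm3 thus had an interval above 0 in all 4 neutrophil libraries and Ifitm2 in 1, the CCR2 KO 24 h library, although the Ifitm2 ratio was above 0 in 3. The element cores described at the start lay after the RefSeq start at Ifitm3 and before it at Ifitm2. Whether they have a part in these ratios was not tested.

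**Figure D5:**
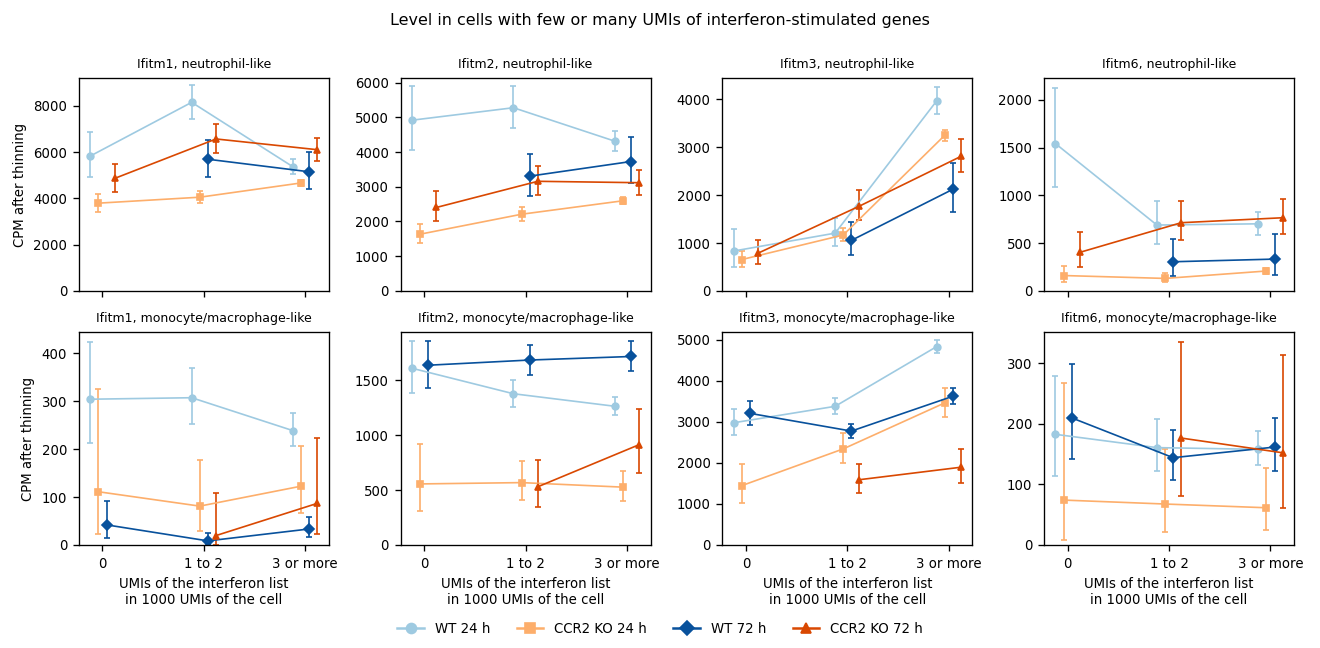
Level of each Ifitm gene (CPM after thinning each cell to 1000 UMIs) in neutrophil-like cells (top) and monocyte/macrophage-like cells (bottom) with 0, 1 to 2 or 3 or more UMIs of the 28-gene interferon-stimulated list, for bins of 20 or more cells. Lines are libraries and bars 95% counting intervals, and each vertical axis starts at 0 with its own scale. Ifitm3 in neutrophil-like cells was highest in the upper bin of every library.

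Receptor and signalling genes of the interferon pathway were compared from a list of their own. Of its 12 genes, none was past 2-fold between the strains in macrophages at 24 h or 72 h. Between the times in WT macrophages Ifngr1, a chain of the interferon gamma receptor, was higher at 72 h (1.06) and Socs1, the feedback inhibitor, lower (-1.55). In neutrophils Socs1 was higher in CCR2 KO at both times (1.08 and 1.03), and among the genes lower at 72 h past 2-fold were Stat2 and Socs1, in WT (-1.28 and -1.68) and in CCR2 KO (-1.88 and -1.73). Stat2 is also a member of the interferon-stimulated list. Ifnar1, a chain of the type I interferon receptor, was at 69.5 to 118 CPM in macrophages and 72.5 to 130.0 CPM in neutrophils.

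Relatives and partners of the family were compared from fixed lists. The other Ifitm genes in the tables, Ifitm5, Ifitm7 and Ifitm10, had 136, 11 and 100 UMIs in all 5811 cells. Ifitm10 was at 54.4 CPM in NK cell-like cells, above its 6.29 CPM in neutrophil-like cells, and Ifitm5 was at most 13.4 CPM in any class of the pooled libraries. None of the 5 measured CD225 (dispanin) relatives reached 20 CPM in macrophages or neutrophils. Among genes for proteins reported to bind IFITM proteins, the tetraspanin genes Cd81 and Cd9 were higher in CCR2 KO than in WT macrophages at 24 h, by 2.96 and 2.67, against the direction of the 4 Ifitm genes. The mix of clusters differed here. Cd81 was a leading gene of the Lilra5-led cluster, with 52 of 220 CCR2 KO and 24 of 1278 WT macrophages at 24 h. Cd9 was a leading gene of a sub-cluster with 67 and 25 cells. Ratios of Cd81 and Cd9 within clusters were not computed. Cd9 was also higher in CCR2 KO neutrophils at 24 h (1.21). Between the times Cd81 was higher at 72 h in WT macrophages (2.70) and Cd9 lower in CCR2 KO macrophages (-1.36). Vapa and Zmpste24, also from this list, were at 181 to 316 CPM and 28.8 to 38.0 CPM in macrophages, and neither was past 2-fold in any of the 4 macrophage comparisons.

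Over the 23 units of class and library with at least 30 cells, each member had other genes with a like pattern. Likeness was Pearson's r of log2(CPM + 10) over those units, among 9734 genes at 20 CPM or more in any unit, and the units share libraries and classes, so r is a description. Ifitm1 was most like Sesn2 (r = 0.92), Lilra6 (0.90), Il1r2 (0.90), Gnai2 (0.89) and Lcp1 (0.89). Ifitm2 was most like Pirb (0.95), Cd300a (0.94), Csf2rb (0.94), Slc6a6 (0.94) and Alox5ap (0.93). Genes most like Ifitm3 included App (0.97), Cd68 (0.95), Cfp (0.94) and Pirb (0.92). Ifitm6 was most like Gpr141 (0.94), Ptpn1 (0.93), Wfdc17 (0.93), Card9 (0.92) and Pira2 (0.91). Among the members themselves r was 0.88 for Ifitm3 and Ifitm6, 0.88 for Ifitm2 and Ifitm6, and lowest, 0.66, for Ifitm1 and Ifitm3.

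The members were also spread differently over the cells of a class. Ifitm3 was even among WT macrophages, where the highest 10% of cells held 23.0% of its UMIs at 24 h and 26.6% at 72 h. Ifitm2 was alike, with 25.1% and 25.3%. Ifitm1 was concentrated in few macrophages, with 63.4% and 91.6% in the highest 10%, and Ifitm6 lay between them at 56.4% and 57.5%. A rare RNA is concentrated by counting alone, so these shares are to be read with the levels above. In neutrophil-like cells the highest 10% held 37.3% to 45.9% of Ifitm1 UMIs. Between members within thinned neutrophil-like cells, Spearman's rho of Ifitm1 with Ifitm2 was 0.33, 0.38, 0.40 and 0.53, and that of Ifitm1 with Ifitm3 was 0.03, 0.31, 0.12 and 0.39.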

How the data were processed

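Per the methods of the study and the submitters' processing notes, leukocytes were sequenced with the droplet 3′ chemistry, aligned to GRCm38/mm10 with Cell Ranger 3.0.2 (Seurat is also named) and filtered by the authors to cells with at least 200 genes and at most 10% mitochondrial reads. The deposited tables hold raw UMI counts per gene and cell, with no normalization. Levels were UMIs summed over the cells of a class and library, given as counts per 1000000 (CPM) with exact Poisson 95% intervals. Ratios of 2 libraries had exact conditional 95% intervals, a count of 0 was set to the floor of 3 counts, and a gene was called when past 2-fold, among genes at 20 CPM or more in either library. Cells were clustered with scanpy 1.11.5 (2000 variable genes, 30 components, Leiden resolution 1) and classes were named from markers, each needing 3 detected markers. The text names the members, the fixed lists and the 5 genes most like each member, less a few items that are not reported here. The ratio step was tested on simulated counts. Scrublet called 10 of 5811 cells, 0.172% in all, which is too few for the caller to have worked, so doublets were not removed. TMM factors came from edgeR 4.0.16. Groups were taken from the labels, with 1 library each. The members and lists were chosen with earlier results of these data known, and an earlier analysis of the same files was the starting point of the lists. Exact p-values cannot be had from 1 library per group.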

Additional observations from a re-analysis of the deposited data

Results flagged for a closer look

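In 4 instances the same contrast had opposite signs in 2 settings, with both log2 ratios past 0.5 in size. Ifitm1 in monocyte/macrophage-like cells was lower in CCR2 KO than in WT at 24 h (-1.198) and higher at 72 h (0.9244). The latter was against a low WT level for which no background level was set. Ifitm3 at 72 h was lower in CCR2 KO macrophages (-0.6716) and higher in CCR2 KO neutrophils (0.6094). Ifitm6 in neutrophil-like cells was lower in CCR2 KO at 24 h (-2.248) and higher at 72 h (0.9739). Ifitm6 in neutrophil-like cells was lower at 72 h than at 24 h in WT (-1.318) and higher in CCR2 KO (1.904), and these last 2 contrasts are built from the same 4 libraries as the pair before them. The class ratios of neutrophils were not shared by every cluster. With 1 library per group none of these differences was tested.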

How the results depend on the processing

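Each ratio was recomputed under 14 other settings, of which 3 (non-immune cells kept, Siglecf-led cells counted as neutrophils, dividing cells counted as macrophages) were chosen after the data were seen. Of 448 single-gene ratios, 434 kept their direction, and of 112 counts of members past 2-fold, 79 were unchanged. No paired analysis was possible because each group has 1 library, and no library could be left out for the same reason. The cause of the shifts below was not tested. In macrophages, CCR2 KO against WT at 24 h (3 of 4 past 2-fold) gave 1 at resolution 2. At 72 h (0 of 4) the count was 1 with the per-cell gate, the Ifitm and interferon genes kept for clustering, TMM scaling, the mean of per-cell CPM, the top 1% of cells removed or non-immune cells kept, and 2 at resolution 2, with each library clustered on its own, at most 5% mitochondrial UMIs, thinned cells or dividing cells included. Ifitm3 in that comparison turned to 0.164 with each library on its own and 0.0141 at resolution 2. In CCR2 KO macrophages over time (1 of 4) the count was 2 with the gate, resolution 2, the Ifitm genes kept, at most 5% mitochondrial UMIs, cells with over 1% other markers removed, TMM, thinning or the top 1% removed, 3 with each library on its own, and 0 with non-immune or dividing cells included. There Ifitm1 turned to 1.25 (gate), 0.788 (per-cell mean) and 0.998 (dividing cells), and Ifitm3 to 0.472 (each library on its own), 0.184 (resolution 2) and 0.204 (mitochondrial limit). Ifitm6 in WT macrophages over time turned to 0.0134 after thinning. In neutrophils, CCR2 KO against WT at 24 h (2 of 4) gave 1 with the gate, each library on its own, TMM, thinning or the per-cell mean. At 72 h (0 of 4) it gave 1 with each library on its own and 2 with TMM, where Ifitm2 turned to 0.21. WT neutrophils over time (2 of 4) gave 1 with the per-cell mean. CCR2 KO neutrophils over time (1 of 4) gave 0 with the gate or with Siglecf-led cells, where Ifitm1 turned to -0.322 and -0.285 and Ifitm2 to -0.0408 and -0.0518. TMM moved all genes of a neutrophil comparison by -0.37 to 0.39 on the log2 scale. Macrophages of the CCR2 KO 72 h library (131 cells) and neutrophils of the WT 72 h library (88 cells) were the smallest units of their classes, which limits the precision of their ratios.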

Other observations

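A few cells outside the classes carried much Ifitm1. The 5 cells that passed the per-cell gate for mast cells or basophils, with transcripts such as Mcpt8 and Ms4a2 and at most 1 UMI of S100a8 and S100a9, held 9532 CPM of Ifitm1 and no Ifitm6. In the CCR2 KO 24 h library 2 of them held 154 of the 156 Ifitm1 UMIs of the unnamed cluster led by Trdc, which was at 10.2 CPM without them. In the CCR2 KO 72 h library 3 of them held 202 of the 1498 Ifitm1 UMIs of the Siglecf-led cluster, which was at 1138 CPM without them.

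In the WT 72 h library much of the Ifitm3 RNA of a pair of lymphoid clusters lay in cells that also held macrophage RNA. In the cluster led by Iglc1, 7 of 20 cells had over 0.1% of their UMIs in monocyte/macrophage markers and held all 301 Ifitm2 and 607 Ifitm3 UMIs, while the other 13 held 0. Among T cell-like cells 3 of 31 cells were of this kind and held 79 of 81 Ifitm3 and 55 of 72 Ifitm2 UMIs, while 47 of 70 Ifitm1 UMIs lay in the other 28. The 12 cells set aside as non-immune held Ifitm1 at 1077, Ifitm2 at 1566, Ifitm3 at 3331 and Ifitm6 at 0 CPM.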
